A study of Mus musculus with 6 samples.

Results

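Plasminogen activation was followed in mouse lymph-node mast cells through 7 genes among the 17890 in the deposited table, and all 7 were present. The members are the activators Plau and Plat, the receptors Plaur and Plgrkt, the serpins Serpinb2 and Serpine2, and the coagulation starter F3. They were chosen by gene symbol after the difference between metastatic and uninvolved nodes had been seen. Their values, fold changes and calls in that comparison are therefore a description that supports nothing. A member described as called is one whose adjusted p was under 0.05 in the fit over all genes.

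Mast cells were taken from mouse lymph nodes free of tumour (uninvolved nodes, uLN, 3 libraries) and from nodes to which a tumour had spread (metastatic nodes, mLN, 3 libraries). The sources used here do not state mouse strain, genotype, sex, age, tumour type or how the mast cells were isolated. Whether the replicates are separate animals is likewise not stated, so p-values reflect the variation among the 6 libraries, and that may be technical. Each library held 17643916 to 17799420 estimated counts. Levels are given in CPM, a gene's count divided by the TMM-scaled size of its library, and 3 reads in a library correspond to 0.169 to 0.17 CPM.

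Plasmin is the protease that dissolves fibrin and cuts other matrix proteins. It is made from circulating plasminogen by urokinase (Plau) or by tissue-type activator (Plat), mostly on cell surfaces where receptors hold enzyme and substrate together. Serpins stop the activators or plasmin by trapping the protease in a covalent complex. Mast cells are known for granule tryptase and chymase, and human mast cells have been described as a source of tissue-type plasminogen activator.

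The label of the cells was checked against 10 mast cell markers, whose summed level was 37300 to 39000 CPM in uLN and 35300 to 37900 CPM in mLN. Single markers moved in both directions, with 6 of the 10 called lower in mLN, among them Kit (2.47-fold), and 3 higher (Cma1, Tpsb2 and Mcpt4). Over all tested genes 34.2% were called lower and 33.2% higher. Sums for other cell types were far lower. Among the mLN libraries, replicate 3 stood apart from the other two, with a median chi-square per gene of 2.58 and 2.48 against 0.736 between replicates 1 and 2. The 10 macrophage markers summed to 128 to 179 CPM in uLN and 214 to 247 CPM in mLN. Of the 10 endothelial markers 7 had at most 18 reads over the 6 libraries, and nearly all of that sum was Pecam1. Markers of keratinocytes and fibroblasts stood out in mLN replicate 1, with values given beside the sparse members.

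Start regions are shown for Serpinb2 and Plaur, an inhibitor and the receptor on the urokinase arm, because they differ in base composition but share 1 kind of motif. Each line gives the 250 bases before the RefSeq start on the plus strand of GRCm38.p6, chr1:107511173-107511422 for Serpinb2 (the first of 2 listed starts) and chr7:24462233-24462482 for Plaur. Both windows lie inside the gene spans that RefSeq gives, which begin farther upstream than the starts used here. Neither window touches an exon of the GENCODE M21 annotation. Capitals mark matches on either strand to 6 motifs. The core promoter motifs searched were TATAAA for the TATA box, CCAAT for the box of that name, and GGGCGG for the GC box. The factor motifs were TGANTCA for AP-1, AGATAA for GATA factors, and ACGTG for the hypoxia response core.
Serpinb2: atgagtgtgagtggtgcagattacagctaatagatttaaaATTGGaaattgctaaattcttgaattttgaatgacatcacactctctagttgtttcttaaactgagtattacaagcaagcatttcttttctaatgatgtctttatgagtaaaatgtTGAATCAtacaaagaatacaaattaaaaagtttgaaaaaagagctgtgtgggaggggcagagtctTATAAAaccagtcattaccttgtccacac
Plaur: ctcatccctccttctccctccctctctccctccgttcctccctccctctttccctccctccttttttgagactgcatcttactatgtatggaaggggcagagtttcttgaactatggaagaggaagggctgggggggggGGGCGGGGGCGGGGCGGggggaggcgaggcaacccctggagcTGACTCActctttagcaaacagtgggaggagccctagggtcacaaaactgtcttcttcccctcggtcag

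The Serpinb2 window was AT-rich, with 32.4% G or C and 0 CG pairs, and the Plaur window held 59.6% G or C and 6 CG pairs. The median over the 32851 windows in the RefSeq table was 52.4%. Serpinb2 had a TATA box 29 to 24 bases before the start, which 12.4% of all windows hold somewhere. It also held a CCAAT box on the minus strand, 210 to 206 bases before the start, a motif in 33.8% of windows. Plaur had no TATA box in these bases but 3 GC boxes, 2 of which share 1 base, and 32.7% of windows hold at least 1. Both windows held an AP-1 match, at 94 to 88 bases before the start in Serpinb2 and 69 to 63 in Plaur. Of all windows 6.75% hold one, but the 2 windows were chosen for a shared motif, so nothing is read from that. F3 also had AP-1 matches, whereas Plgrkt and Serpine2 had none. A match describes the letters and not the binding of a factor. Start regions were matched for 5 of the 7 members.

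The members fell into an expressed set and a sparse set. Per kilobase of exon, the uLN mean was highest for Plgrkt at 74.8 CPM, followed by Plau at 39.1, Serpinb2 at 6.12 and Plaur at 3.49 CPM per kilobase. Plgrkt stood above 97.0% and Plau above 93.3% of the 17419 genes with a length, Serpinb2 above 63.4% and Plaur above 54.4%. The mLN order of these 4 genes was the same, and in both groups the library values of neighbours in the order did not overlap. Serpine2, F3 and Plat lay at 0.126, 0.0529 and 0.00603 CPM per kilobase in uLN. Serpine2 and F3 overlapped in both groups, and F3 had the larger mean of the pair in mLN.

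Of the 7 members 5 passed the expression filter, while F3 and Plat did not. Serpinb2 was called higher in mLN and Plgrkt lower. Plau, Plaur and Serpine2 were not called. Among all 12706 genes tested 67.4% were called, 33.2% higher and 34.2% lower, so nothing is read from 2 calls among 5. The share of all genes whose groups do not overlap was not counted, so nothing is read from separate groups either. The median log2 fold change was 0.07 over the 5 tested members and -0.01 over all tested genes, and 65.4% of all tested genes differed by less than 1.5-fold. In these bulk libraries, fewer cells of a type and less RNA per cell cannot be told apart.

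**Figure D1:**
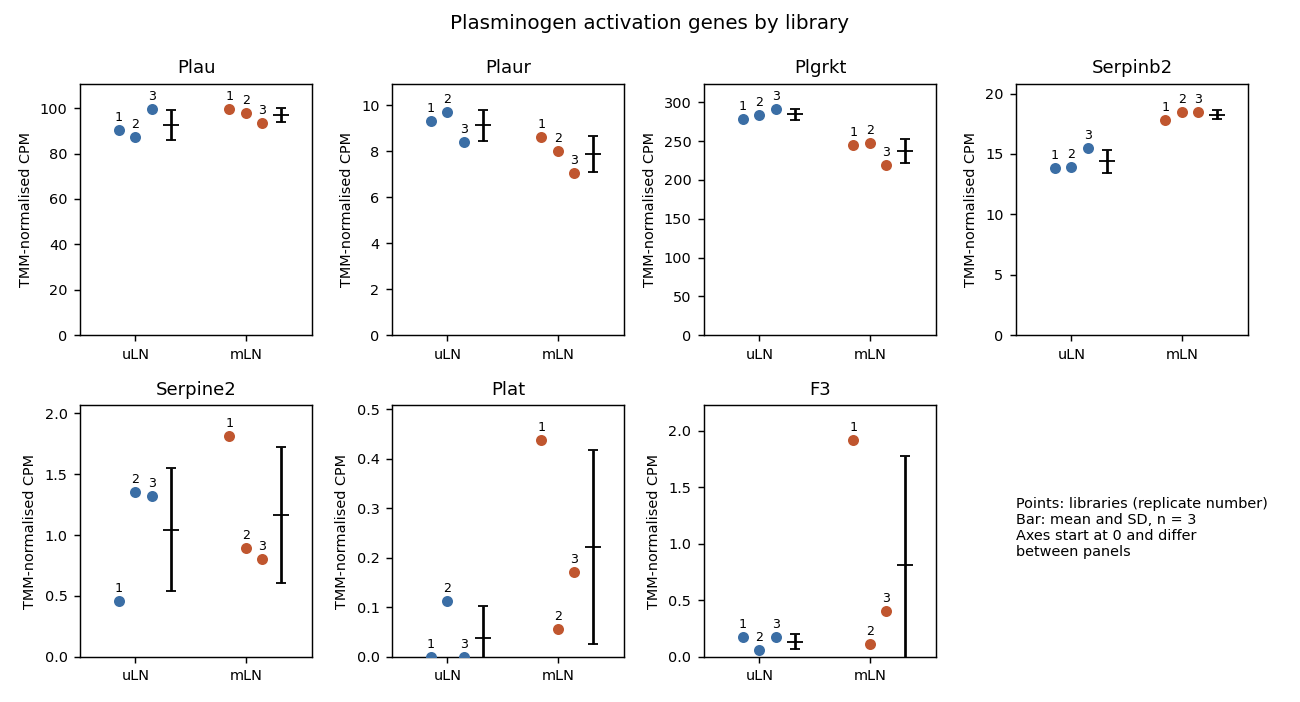
TMM-normalised CPM (y axis) of the 7 members in the uLN (blue) and mLN (orange) libraries; points carry the replicate number, black bars give mean and SD (n = 3, cut at 0), and each panel has its own axis from 0. Serpinb2 and Plgrkt separate the groups, which was not counted over all genes, and F3 and Plat are highest in mLN replicate 1.

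Plau, the urokinase-type plasminogen activator, was the main activator transcript in these cells (RefSeq GRCm38.p6, chr14:20836662-20843388, plus strand). Its level in uLN replicates 1, 2 and 3 was 90.4, 87.1 and 99.8 CPM, and in mLN it was 99.5, 97.9 and 93.6 CPM. The groups overlapped, since uLN replicate 3 held the highest value of all. Means were 92.4 ± 6.57 and 97.0 ± 3.02 CPM (SD, n = 3), a log2 fold change of 0.07 ± 0.06 (SE). Leaving out 1 library at a time moved that change between 0.03 and 0.12.

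Plat, the tissue-type activator (chr8:22757722-22782848, plus strand), was barely detected. It had 0, 2 and 0 reads in uLN and 8, 1 and 3 in mLN. The ratio of summed reads, scaled to library size, was 5.88 with an exact 95% interval from 1.31 to 54.1. Without mLN replicate 1 the ratio was 2.97, with an interval from 0.426 to 32.8. These intervals cover counting error only. Of the 6 libraries, 5 held at most 3 reads of it. Plg itself, the substrate, had 1 read over all 6 libraries.

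Plaur encodes the urokinase receptor, a lipid-anchored surface protein that concentrates urokinase at the membrane (chr7:24460937-24475970, plus strand). Its uLN levels were 9.29, 9.71 and 8.39 CPM and its mLN levels 8.61, 8.01 and 7.06 CPM. Only mLN replicate 1 and uLN replicate 3 crossed, with 8.61 against 8.39, and mLN replicate 3 was again the lowest. The log2 fold change was -0.21 ± 0.12 (SE), and it stayed between -0.28 and -0.13 when single libraries were left out.

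Plgrkt, a transmembrane receptor that binds plasminogen through a carboxy-terminal lysine, was the most abundant member (chr19:29348599-29367292, minus strand). Levels were 278, 284 and 291 CPM in uLN and 245, 247 and 219 CPM in mLN. Every mLN library lay below every uLN library, and mLN replicate 3, the library that stood apart, was the lowest. The means of 284 ± 6.72 and 237 ± 15.7 CPM (SD, n = 3) give a 1.20-fold lower level in mLN, a log2 fold change of -0.26 ± 0.05 (SE). Leaving out 1 library at a time gave log2 fold changes from -0.29 to -0.20.

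Serpinb2, plasminogen activator inhibitor type 2, inhibits urokinase and is largely kept inside cells (chr1:107500892-107525600, plus strand). Its levels were 13.8, 13.9 and 15.5 CPM in uLN and 17.8, 18.5 and 18.5 CPM in mLN. All mLN libraries were higher than all uLN libraries, and the mLN libraries lay close together. Means of 14.4 ± 0.927 and 18.3 ± 0.404 CPM (SD, n = 3) give a 1.27-fold higher level in mLN, a log2 fold change of 0.34 ± 0.08 (SE). Without single libraries the log2 fold change ran from 0.31 to 0.39. Both this call and that of Plgrkt were lost when the coefficient of variation between replicates was set to 0.2. The Serpinb2 exons share 291 bases with those of Serpinb10 on the same strand, a gene that held at most 2.02 estimated counts in any library. Serpinb2 and Plau are also made by macrophages, and the 10 macrophage markers were higher in sum in mLN. From uLN to mLN, Cd68 (24.9 to 90.2 CPM) and Adgre1 (26.8 to 61.1 CPM) rose most in CPM. Of 9 tested markers 3 were called higher and 6 lower, against 33.2% and 34.2% of all tested genes. The part of macrophages in the Serpinb2 difference was not tested.

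Read ratios within a library do not depend on scaling between libraries. For each Plau read there were 0.153, 0.159 and 0.155 Serpinb2 reads in uLN and 0.179, 0.189 and 0.197 in mLN. The groups did not overlap, and the mean ratio was 1.21-fold higher in mLN. The exonic lengths of this pair are 2349 and 2367 bases, so per length the mean ratios were 0.157 and 0.19. Urokinase transcripts outnumbered those of this inhibitor in every library. Plaur reads per Plau read were 0.103, 0.111 and 0.0841 in uLN against 0.0865, 0.0818 and 0.0754 in mLN, with overlap between uLN replicate 3 and mLN replicate 1.

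**Figure D2:**
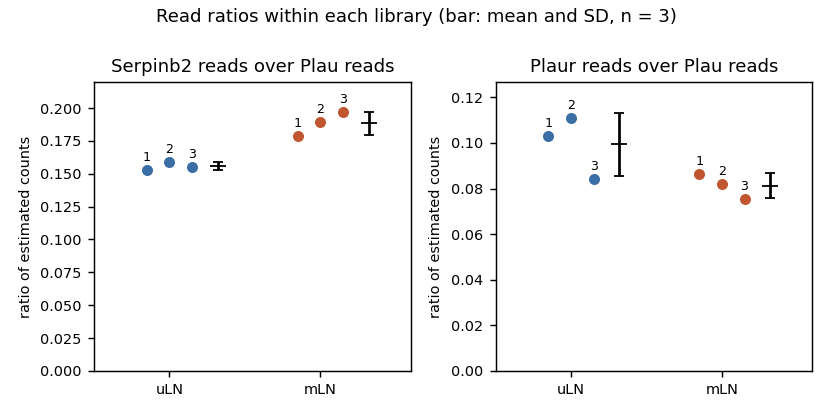
Estimated counts of Serpinb2 (left) and Plaur (right) divided by those of Plau in the same library (y axis, from 0), for 3 uLN and 3 mLN libraries with mean and SD. The Serpinb2 ratio is 0.153 to 0.159 in uLN and 0.179 to 0.197 in mLN, and the Plaur ratios of the 2 groups overlap.

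Serpine2, protease nexin 1, inhibits thrombin, urokinase and plasmin outside the cell (chr1:79794317-79858665, minus strand). It had 8, 24 and 23 reads in uLN and 33, 16 and 14 in mLN, so both the lowest and the highest library were a replicate 1. The mean level was 1.04 ± 0.508 CPM in uLN and 1.17 ± 0.556 CPM in mLN (SD, n = 3), and the groups overlapped. Its log2 fold change of 0.16 ± 0.44 (SE) turned to -0.30 without mLN replicate 1 and to -0.20 without uLN replicate 1.

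F3 encodes tissue factor, the membrane protein that starts coagulation by binding factor VII (chr3:121723537-121735052, plus strand). It had 3, 1 and 3 reads in uLN and 35, 2 and 7 in mLN. Of its mLN level, 78.9% came from replicate 1, at 1.92 CPM against 0.111 and 0.402 CPM in replicates 2 and 3. The ratio of summed reads was 6.16 (exact 95% interval 2.75 to 16.2) with all libraries and 1.91 (0.633 to 6.03) without mLN replicate 1. These intervals too cover counting error only and not the difference between libraries, since 35 of the 44 mLN reads lay in 1 library. With all 6 libraries, F3 was called higher when no expression filter was used and in DESeq2.

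The 3 sparse members were each highest in mLN replicate 1, where the keratinocyte and fibroblast markers also had their highest sums. The macrophage, neutrophil, endothelial and B and T cell sums were highest in other libraries. In mLN replicate 1 the 11 keratinocyte markers summed to 207 CPM, against 27.4 and 48.9 CPM in mLN replicates 2 and 3 and 18.3 to 31.8 CPM in uLN. The 10 fibroblast markers summed to 120 CPM there, against 18.7 and 32.6 CPM in the other mLN libraries and 21.7 to 30.4 CPM in uLN. Among markers whose other 5 libraries summed to 20 reads or more, 8 of 8 keratinocyte and 5 of 6 fibroblast genes peaked in mLN replicate 1. Of all genes with that many reads, those lower in mLN included, 12.7% peaked there. Plau, Plaur, Plgrkt and Serpinb2 did not follow that pattern, with 32.5% to 36.4% of their mLN level in replicate 1. The part of other cell types in the F3, Plat and Serpine2 values was not tested.

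**Figure D3:**
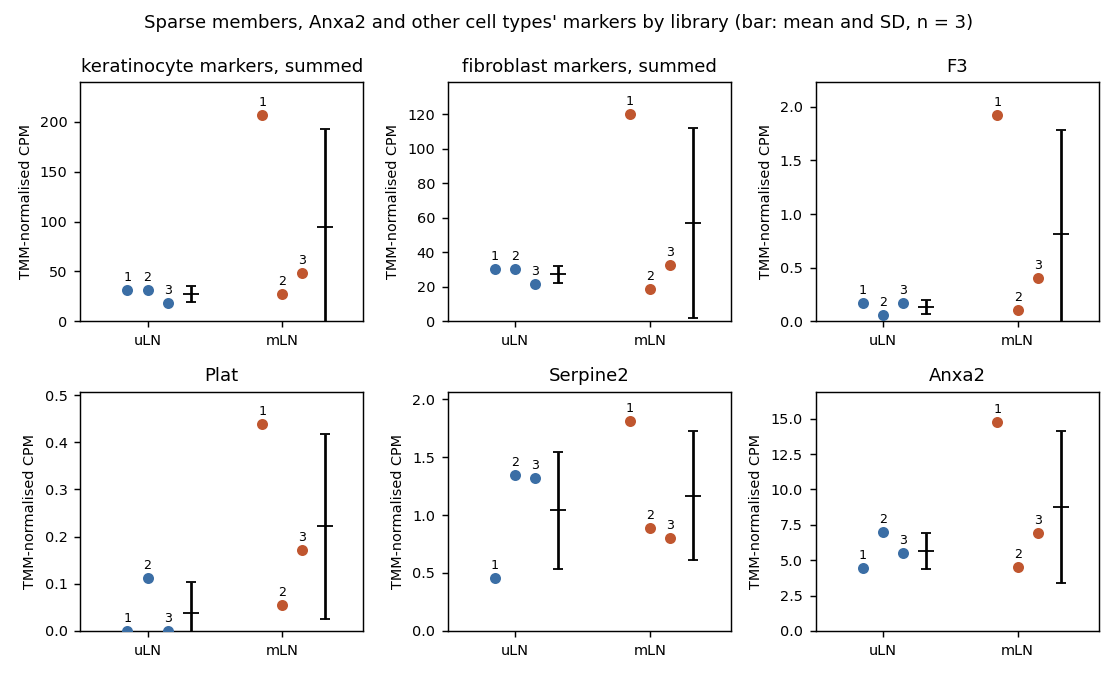
TMM-normalised CPM (y axis, from 0) in each uLN (blue) and mLN (orange) library for summed keratinocyte and fibroblast markers, the sparse members F3, Plat and Serpine2, and the plasminogen-binding annexin gene Anxa2, with mean and SD (n = 3, cut at 0). All 6 panels have their highest point in mLN replicate 1.

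Genes around the members were taken from 6 lists, and their tests come from edgeR's quasi-likelihood fit with Benjamini-Hochberg adjustment over all 12706 genes. The lists were chosen with earlier results of these data known, so their counts are a description. Among binding partners of plasminogen, urokinase and its receptor, 11 of 16 tested genes rose in mLN, 2 fell and 3 were not called. The list's median log2 fold change was 0.75. Of all tested genes, 33.2% were higher and 34.2% lower. In this list 8 of 18 genes with enough reads (44.4%) were highest in mLN replicate 1, against 12.7% of all genes. That 12.7% includes genes lower in mLN, which a list of mostly higher genes does not match. Nothing is therefore read from the difference. Eno1, a glycolytic enzyme that also binds plasminogen at the cell surface, rose 2.76-fold from 252 ± 7.08 to 697 ± 47.1 CPM (SD, n = 3, adjusted p = 1.37e-08). The integrin chains Itgb1 and Itgb2, which pair with the urokinase receptor, rose 1.63-fold and 1.96-fold (adjusted p = 3.75e-07 and 5.57e-07). Vldlr, an endocytic receptor for complexes of protease and serpin, rose 6.59-fold from 1.93 ± 0.181 CPM (adjusted p = 1.56e-07). Hmgb1, which also binds plasminogen, fell 1.87-fold (adjusted p = 3.81e-08). Eno1 and Hmgb1 have near-identical pseudogene copies, and how shared reads were assigned is not stated.

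Some partners were picked after their values were seen because they bear directly on the members. S100a10 and Anxa2 encode the 2 subunits of a surface complex that binds plasminogen and its tissue-type activator. S100a10 was abundant and not called, at 191, 201 and 204 CPM in uLN and 205, 202 and 223 CPM in mLN. Anxa2 was not called either (log2 fold change of 0.63 ± 0.36, SE, adjusted p = 0.148), and its levels of 14.8, 4.50 and 6.95 CPM in mLN put the peak again in replicate 1. Without mLN replicate 1 its log2 fold change was 0.02, and without mLN replicate 2 it was called (adjusted p = 0.0205). Lrp1, the main clearance receptor for urokinase-inhibitor complexes, fell 1.52-fold (adjusted p = 0.0157). That call was lost without uLN replicate 2, uLN replicate 3 or mLN replicate 2, each left out alone (adjusted p up to 0.0869).

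Of the listed regulators of plasminogen activation, 5 reported genes were tested, of which 2 rose and 1 fell (median log2 fold change 0.16). Among all tested genes, 33.2% rose and 34.2% fell. Of 7 regulators with enough reads 5 were highest in mLN replicate 1, against 12.7% of all genes, those lower in mLN included. Serpinb6a, a serpin related to Serpinb2, fell 1.17-fold from 165 ± 3.60 to 141 ± 4.57 CPM (SD, n = 3, adjusted p = 0.00111). Hgfac, the activator of hepatocyte growth factor, rose 1.12-fold (adjusted p = 0.0210), a call lost without mLN replicate 1 (adjusted p = 0.05), mLN replicate 2 (0.0696) or uLN replicate 3 (0.122). Serpini1, neuroserpin, which inhibits tissue-type activator and was chosen after its values were seen, rose 1.38-fold to 3.56 CPM (adjusted p = 0.0367), and its call was lost in 5 of the 6 fits that leave out 1 library. Without mLN replicate 1, 0 of these genes were called higher. The filter removed A2m, the broad protease trap, and Serping1, the C1 inhibitor. They had 255 and 76 reads in mLN replicate 1, where 88.5% and 83.1% of their mLN levels lay.

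The tissue factor and clotting list was split, with 5 of 13 tested genes higher, 5 lower and 3 not called (median log2 fold change 0.17). Over all tested genes, 33.2% were higher and 34.2% lower. Tfpi, the inhibitor of the tissue factor complex, rose 2.60-fold from 3.83 ± 0.594 to 9.96 ± 0.696 CPM (SD, n = 3, adjusted p = 1.27e-05), similarly in all 3 mLN libraries. Tgm2, a transglutaminase that cross-links proteins, rose 5.07-fold (adjusted p = 1.94e-09). F2r, the thrombin receptor PAR1, was the most abundant gene of this list and fell from 946 ± 10.6 to 627 ± 21.2 CPM (SD, n = 3, adjusted p = 6.84e-07). F2rl2, a further thrombin receptor, fell 1.44-fold (adjusted p = 1.07e-04), and Vwf, the platelet-binding von Willebrand factor, fell 2.11-fold (adjusted p = 9.50e-07). Vwf is also an endothelial gene. Endothelial markers other than Pecam1 had few reads and moved in both directions, such as Cdh5 (1 read in uLN, 10 in mLN) and Esam (14 and 6). The part of endothelial cells in the Vwf level was not tested. Procr, the protein C receptor gene, rose 1.90-fold and was chosen after its values were seen. Its call was lost without uLN replicate 1 or 3 or mLN replicate 1 or 2 (adjusted p from 0.0529 to 0.0740). With uLN replicate 1 or uLN replicate 3 left out, the list held 3 higher genes.

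Serpins outside the member set went in both directions. In the list of clade B serpins, the family of Serpinb2, 0 of 5 tested genes rose and 3 fell (median log2 fold change -0.56). That list leaves out Serpinb6a, which fell, and Serpinb8, which was not called, because both are listed as regulators. The shares over all tested genes were 33.2% and 34.2%. Serpinb1a, which inhibits neutrophil proteases, fell 1.68-fold from 770 ± 22.0 to 458 ± 16.6 CPM (SD, n = 3, adjusted p = 2.31e-07). Serpinb9, the granzyme B inhibitor, fell 1.48-fold (adjusted p = 4.36e-05). Serpinb5, a keratinocyte serpin that the filter removed, had 29 reads in mLN replicate 1, 1 and 4 in mLN replicates 2 and 3, and 3 over the uLN libraries. It was called higher in DESeq2 and with no expression filter. Of the other serpins 2 of 3 tested rose, against 33.2% of all tested genes. Serpina3g rose 2.77-fold to 51.4 ± 4.07 CPM (SD, n = 3, adjusted p = 9.46e-08). Serpinf1, chosen after its values were seen, was called higher with a log2 fold change of 1.83, which was 0.41 without mLN replicate 1 (adjusted p = 0.417). Its call was also lost without any 1 of the uLN replicates (adjusted p from 0.0892 to 0.131). Clade B serpins and Serpina3g lie in families of close copies, so reads may have been split between them.

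Among genes whose proteins plasmin can cut or free, 9 of 16 tested genes rose and 1 fell (median log2 fold change 0.85). Of all tested genes, 33.2% rose and 34.2% fell. In mLN replicate 1, 6 of 18 plasmin substrates (33.3%) had their highest level, against 12.7% of all genes. Genes lower in mLN are part of that 12.7%, so nothing is read from this difference either. The laminin chains Lama5 and Lamc1 rose 3.95-fold and 1.71-fold (adjusted p = 1.07e-09 and 4.46e-06). Vegfc, a lymphatic growth factor that proteases process, rose 1.73-fold (adjusted p = 4.89e-06), and the surface proteoglycan gene Sdc4 rose 2.66-fold (adjusted p = 1.76e-04). Tgfb1, whose latent form plasmin can release, fell 1.42-fold from 478 ± 17.2 to 337 ± 9.11 CPM (SD, n = 3, adjusted p = 3.55e-06).

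**Figure D4:**
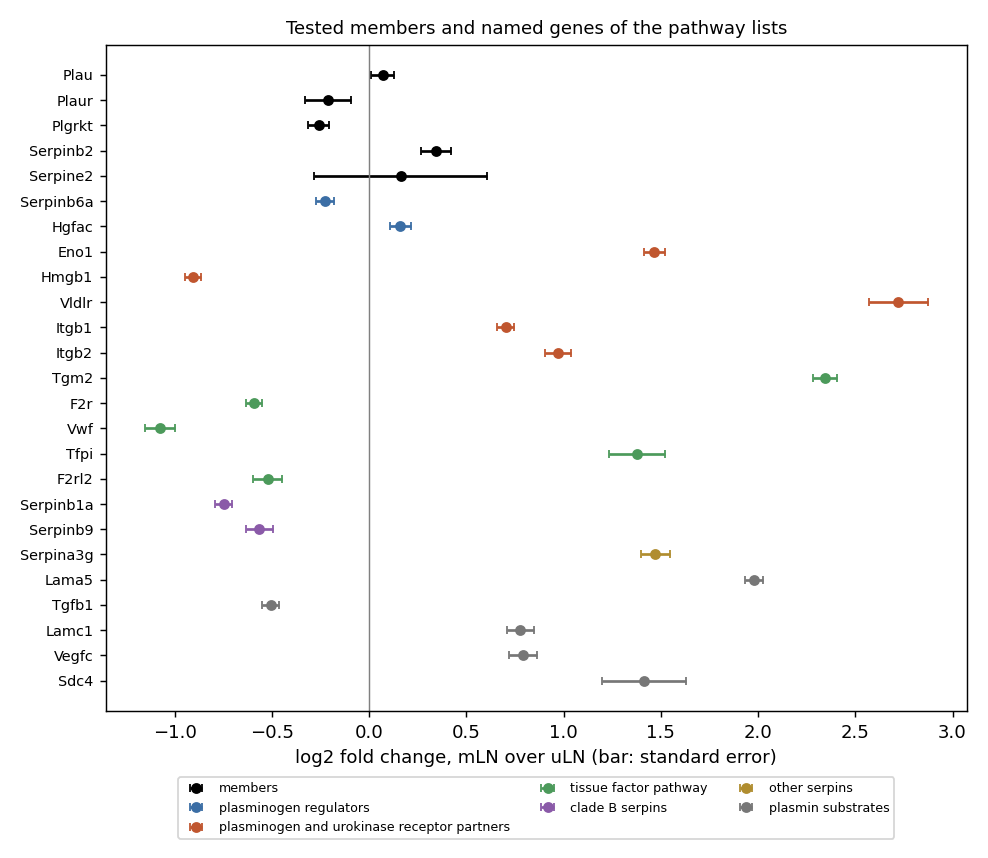
Log2 fold change of mLN over uLN (x axis; points, with standard error as bars) for the 5 tested members (black) and the named genes of the 6 lists (colours). The members lie between -0.26 and 0.34, and named list genes run from -1.07 (Vwf) to 2.72 (Vldlr). The named list genes were chosen by smallest adjusted p, whereas all tested members are shown. Nothing is therefore read from the wider range of the list genes.

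Genes with profiles most like the 2 called members were found by the distance between centred log2 CPM profiles over the 6 libraries, among 12111 protein-coding genes. Nearest to Serpinb2 were Vdac2 (distance 0.0454), Rpl36al (0.0488) and Twf1 (0.0611). The nearest genes to Plgrkt were Hsbp1 (0.0433), Nsfl1c (0.0486) and Slbp (0.0530). The first 3 genes were 1.26-fold to 1.29-fold higher in mLN, and the other 3 were 1.17-fold to 1.23-fold lower. Fold changes near those of the 2 members follow from this choice of genes.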

How the data were processed

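Estimated counts for 6 libraries came from a single gene table that the authors deposited, with no scaling stated. The submitters' processing notes name TopHat, cutadapt and FastQC, and the build GRCm38. A counting tool and a strand setting are not given in the sources used. Between 32.2% and 32.8% of a library's values were not whole, so counts were rounded for the tests. The 1 row that names no gene was left out.

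mLN was compared with uLN by edgeR 4.0.16 (R 4.3.3), quasi-likelihood test, TMM scaling and default filter, with Benjamini-Hochberg adjustment over 12706 genes and calls at an adjusted p under 0.05. Standard errors are the log2 fold change over the square root of F. Simulated data held 12706 genes, 200 of them changed, with a coefficient of variation of 0.06 for every gene. The test recovered 38.0% of 1.25-fold, 76.0% of 1.5-fold, 90.0% of 2-fold and 96.0% of 4-fold changes, with 3 false calls among 153. In the real data 67.4% of genes were called, so these rates need not hold for this comparison.

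The members and lists were chosen with earlier results of these data known. Named list genes are the first 5 by adjusted p with at least 5 CPM in 1 group. From the list of plasminogen regulators, 1 gene is not reported here and not in its counts. Coordinates and start regions are RefSeq's (GRCm38.p6), exonic lengths GENCODE M21's. Replicates differed by more than counting error (mean chi-square per gene from 2.06 to 3.77, and 11.1 and 11.4 for mLN replicate 3 against the other mLN libraries) and were kept as separate samples. Alternatives were RLE factors, library totals, no filter, DESeq2 1.42.0, a fixed variation, a replicate block and leaving out each library.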

Additional observations from a re-analysis of the deposited data

How the results depend on the processing

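Over 12 alternatives, Serpinb2 and Plgrkt kept their direction, and 1 setting, a coefficient of variation of 0.2, ended their calls. Plau and Plaur kept their direction and stayed uncalled in all 12. Serpine2 ran from -0.30 to 0.39 (log2) as single libraries were left out. With the coefficient of variation at 0.2, calls fell to 2145 higher and 1913 lower over all genes. The same setting gave 0 members higher, 0 members lower, 0 plasminogen regulators in each direction, 2 lower genes in the tissue factor list and 0 lower plasmin substrates. With no expression filter and in DESeq2, 2 members were higher, F3 being the second, and 2 and 1 clade B serpins. Leaving out single libraries gave 0 to 2 higher plasminogen regulators, 3 to 5 higher genes in the tissue factor list, 1 to 2 higher among other serpins and 1 to 2 lower receptor partners. The replicate block left 1 plasminogen regulator higher. It gave 4122 higher and 4263 lower genes in all. Correlations of same-numbered libraries, on deviations from group means, were 0.025, -0.155 and -0.013. Libraries with unlike numbers gave -0.16 to 0.185. The check therefore cannot decide whether equal numbers mark paired samples. Depth limits Plat and F3, with 2 and 7 uLN reads.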
